A study of Mus musculus with 4 samples.

Results

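The genes described here encode subunits of the phagocyte NADPH oxidase and the Rac GTPases that serve it, in mouse retina in which miR-124-3p was inhibited. They are Cybb, Cyba, Ncf1, Ncf4, Rac1 and Rac2, 6 of the 48897 genes listed, and were found by symbol. They were chosen by name with the measured comparison between left and right eyes already known, so that their differences between the groups are given as a description without a test. RNA-Seq was carried out on 4 libraries of C57BL/6 retina (C57BL/6J in the methods) with the genotype given as wide type, 2 in the anti-miR-124 group and 2 in the negative control (NC) group. Pups were injected into the vitreous on postnatal day 3 with 0.6 nmol in 1 μl. The left eye received an antagomir, an antisense oligonucleotide with chemical modifications that blocks miR-124-3p, and the right eye a scrambled oligonucleotide, and retinas were taken on postnatal day 9. Each library was a pool of retinas, each group came from more than 1 litter, and the eye side and the treatment cannot be told apart in this design. Each left-eye library shares a number with 1 right-eye library, and since the labels do not say which pair is replicate 1, the pairs are named A and B and the libraries NC-A, anti-A, NC-B and anti-B. The measurement is the number of reads counted on each gene.

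The phagocyte NADPH oxidase transfers electrons from NADPH across a membrane to oxygen and makes superoxide, which phagocytes use against microbes and in signalling. Its catalytic core, encoded by Cybb (the subunit also called NOX2) and Cyba (p22phox), sits in the membrane, where each partner stabilises the other. The core is silent until cytosolic subunits, among them those encoded by Ncf1 (p47phox) and Ncf4 (p40phox), dock on it together with a GTP-bound Rac protein. In the retina, microglia are the resident cells best known for this enzyme. Rac1 is made in nearly all cells and has many other roles, whereas Rac2 is largely a protein of blood-derived cells.

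Levels are given as CPM, which are counts scaled to library size by the trimmed mean of M values (TMM), and as TPM, which are corrected for gene length and depth. The libraries held between 16317239 and 18726963 counts, and a pair of them stood apart. In NC-A, 21 lens genes made up 6.72% of the summed TPM, against 0.0175% to 0.0236% in the other libraries. In anti-B, microglia markers were higher than in the other libraries, with the values given below beside the results. Retina markers were present in each library and summed to between 8084 and 8436 CPM. Differences over all genes were tested by the quasi-likelihood method of edgeR, which called 0 of 17766 genes at a threshold of 0.05 after Benjamini-Hochberg adjustment, with 0.487 as the smallest adjusted p. At an unadjusted p-value under 0.05 by edgeR there were 694 genes. The Wald test of DESeq2 called 34 of the 31982 genes with at least 1 count, 30 higher and 4 lower. None of the 6 genes was among these 34. The percentage called by edgeR over all genes was 0. With 2 pooled libraries a group, these tests measure only the spread between pools.

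The membrane core showed a wide range between libraries. Cybb, on chromosome X at 9435252 to 9487766 of the minus strand in the positions deposited, which match GRCm38, encodes the catalytic subunit. It had 15 counts in NC-A, 7 in anti-A, 7 in NC-B and 283 in anti-B. In CPM these were 0.931, 0.410, 0.388 and 15.0. Only anti-B was high, and the other 3 lay within 8 counts of each other, so that the groups overlapped. Within pair A the ratio of anti-miR-124 to NC was 0.440 (exact 95% counting interval 0.152 to 1.15), and within pair B it was 38.7 (18.6 to 97.2). Counting intervals here cover counting error only, since reads are not independent molecules. The counting interval of pair A includes a ratio of 1 and that of pair B does not. In pair B, the log2 ratio of Cybb (5.18) stood at rank 8 from the top among the 17766 genes tested, and in pair A the log2 ratio (-1.13) stood at rank 17364.

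Cyba, on the minus strand of chromosome 8 at 122424771 to 122432940, encodes the partner that Cybb needs for a stable complex. It had 51 counts in NC-A, 55 in anti-A, 25 in NC-B and 174 in anti-B, or 3.17, 3.22, 1.38 and 9.23 CPM. Its 3 lower libraries were not alike, since NC-A held 2.29 times the level of NC-B (95% counting interval 1.39 to 3.85). Both anti-miR-124 libraries lay above both NC libraries without overlap, anti-A by little. The ratio of anti-miR-124 to NC was 1.02 (0.682 to 1.52) in pair A and 6.67 (4.37 to 10.6) in pair B. Set against NC-A in place of NC-B, the ratio of anti-B was 2.91 (2.12 to 4.07).

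**Figure D1:**
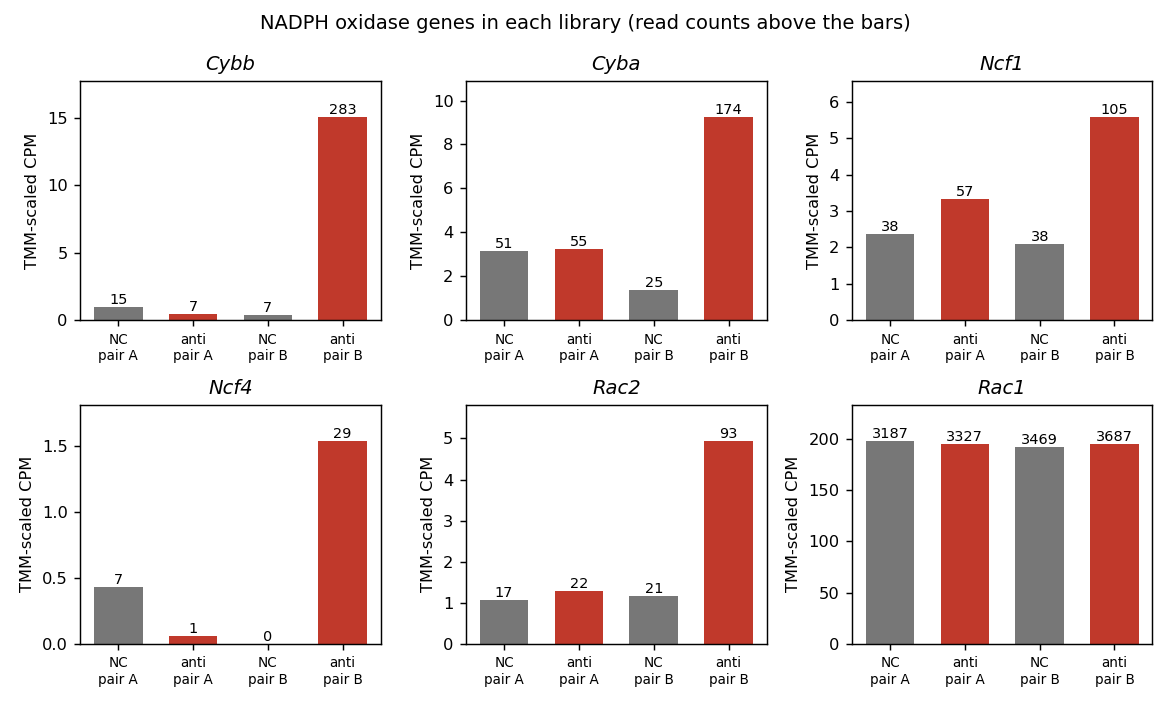
Level of each of the 6 genes in the 4 libraries, as TMM-scaled CPM on a linear axis that starts at 0 and differs between panels, with the read count above each bar. Grey bars are NC and red bars anti-miR-124 libraries, and each bar is 1 library without an error bar. Cybb has 283 counts in anti-B and at most 15 elsewhere, while Rac1 stays between 3187 and 3687 counts.

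Of the cytosolic subunits, Ncf1 encodes the organiser that carries the others to the membrane after phosphorylation. It lies on the minus strand of chromosome 5 at 134220053 to 134229625. It had 38 counts in NC-A, 57 in anti-A, 38 in NC-B and 105 in anti-B, or 2.36, 3.34, 2.10 and 5.57 CPM. Both anti-miR-124 libraries lay above both NC libraries, and the NC libraries were close, at 2.23 ± 0.180 CPM (SD, n = 2). The ratio was 1.42 (95% counting interval 0.922 to 2.19) in pair A and 2.65 (1.81 to 3.94) in pair B. Only the first of these intervals includes 1.

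Promoters were compared for Cybb, Cyba and Ncf1, since windows were found for no other of the 6 genes. Ncf4 and Rac2 were also highest in anti-B. RefSeq windows of 300 bases, from 250 before to 50 after the start, on GRCm38.p6, were found for these 3 of the 6 genes. They were searched on both strands for the letters GAGGAA, the core that the myeloid factor PU.1 binds, a run of GAAA, 2 free bases and GAAA, an interferon-stimulated response element, and a run of GGAA, 2 free bases and GAAA, a composite element of an ETS and an IRF factor. The motifs were chosen after the sequences had been seen. The window of Cybb held all of them and that of Ncf1 held 1 match to the interferon-stimulated response element, and the window of Cyba held none of these letters. Of 32851 windows, 28.3% held the PU.1 core, 3.44% the interferon-stimulated response element and 2.72% the composite element. The matches are shown here 5′ to 3′ on the strand of the gene, which is the minus strand for both, with the matched bases in capitals and 30 bases in each run. A match on the opposite strand therefore appears as its reverse complement.

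Cybb, chrX:9469473-9469502, interferon-stimulated response element on the opposite strand: tagcagtagcTTTCATTTTCcagtgtattt
Cybb, chrX:9469429-9469458, interferon-stimulated response element on the opposite strand: cacaagatctTTTCTCTTTCtgtagttttt
Cybb, chrX:9469334-9469363, interferon-stimulated response element on the strand of the gene: tctgataataGAAAAGGAAAcctattgccc
Cybb, chrX:9469302-9469331, composite element and PU.1 core, which overlap, on the opposite strand: aagctgctgtTTTCATTTCCTCatcagaag
Ncf1, chr5:134229688-134229717, interferon-stimulated response element on the strand of the gene: aaaattctcaGAAAGTGAAAgactaagtct

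The matches of Cybb lay between 168 bases before and 15 bases after its start, and that of Ncf1 from 82 to 73 bases before its start. The start of Cybb in RefSeq lies inside the span deposited for the gene, which begins further upstream. A match of letters is not a site that was shown to be bound, and these libraries do not measure binding.

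Ncf4, on the plus strand of chromosome 15 at 78244164 to 78262582, encodes the subunit that binds phosphoinositides of the phagosome membrane. It was near the limit of what these libraries can count, with 7 counts in NC-A, 1 in anti-A, 0 in NC-B and 29 in anti-B. It was the only 1 of the 6 genes that did not pass edgeR's filter on low counts, which 5 passed. The 1 count of pair A gave a ratio of 0.135 with an interval of 0.00299 to 1.05. Anti-B was at least 9.26-fold higher than NC-B when its 29 counts are taken as exact and set against the floor of 3 counts that a count of 0 allows in a library. The exact 95% counting interval, which covers the error of both libraries, began lower, at 7.06. Again only anti-B was high, and the groups overlapped.

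Rac2 and Rac1 encode the GTPases that complete the assembled oxidase. Rac2, on the minus strand of chromosome 15 at 78559169 to 78572783, had 17 counts in NC-A, 22 in anti-A, 21 in NC-B and 93 in anti-B, or 1.06, 1.29, 1.16 and 4.93 CPM. These values were close to each other except in anti-B, which was above the rest. The ratio was 1.22 (95% counting interval 0.619 to 2.45) in pair A and 4.24 (2.62 to 7.17) in pair B. Rac1, on the minus strand of chromosome 5 at 143505481 to 143528117, had 3187, 3327, 3469 and 3687 counts in the same order. Its level was 195.0 ± 4.08 CPM in the NC group and 195.2 ± 0.503 CPM in the anti-miR-124 group (SD, n = 2 each). The ratios of Rac1 were 0.985 (0.938 to 1.03) and 1.02 (0.972 to 1.07), so that at this depth no difference beyond these intervals was found in either pair. The Rac genes are close in sequence, and how reads that match more than 1 of them were counted is not given in the sources used here. Of genes that overlap the subunits, Gm33784, on the opposite strand of Cybb, had 1 count in all 4 libraries together, and ENSMUSG00000105198.1, on the opposite strand of Rac1, had 5 to 11 counts a library. The other 4 subunits overlapped no listed gene.

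Side by side, 3 of the 6 genes, Cyba, Ncf1 and Rac2, had a ratio above 1 in both pairs, as did 22.8% of all genes tested. The same 3, of the 5 tested, had anti-miR-124 libraries above NC libraries without overlap, against 16.5% of all genes tested. Since the choice of the genes used this contrast, nothing is read from these counts. The median log2 ratio of the 6 genes was 0.001 in pair A and 2.39 in pair B, while the medians of all genes tested were -0.01 and 0.003. With Ncf4 at its bound in place of its log2 ratio the median of pair B was the same, 2.39. The fitted log2 fold changes over both pairs were 3.56 for Cybb (standard error 1.40), 1.47 for Cyba (0.58), 1.00 for Ncf1 (0.33), 1.49 for Rac2 (0.63) and 0.002 for Rac1 (0.07).

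These fitted values rested on 1 library to an unequal degree. Without anti-B, the log2 fold change turned to -0.65 for Cybb, and was 0.52 for Cyba, 0.59 for Ncf1, 0.22 for Rac2 and 0.00 for Rac1. In that setting the lone remaining anti-miR-124 library is assumed to vary like the NC libraries. Without NC-B, the value of Cyba was 0.97. Without NC-A, which carried the lens genes, the values were 4.30 for Cybb, 2.17 for Cyba, 1.08 for Ncf1, 1.42 for Rac2 and 0.02 for Rac1. The direction of Cyba, Ncf1 and Rac2 was the same with each of these libraries left out, and that of Cybb was not.

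**Figure D2:**
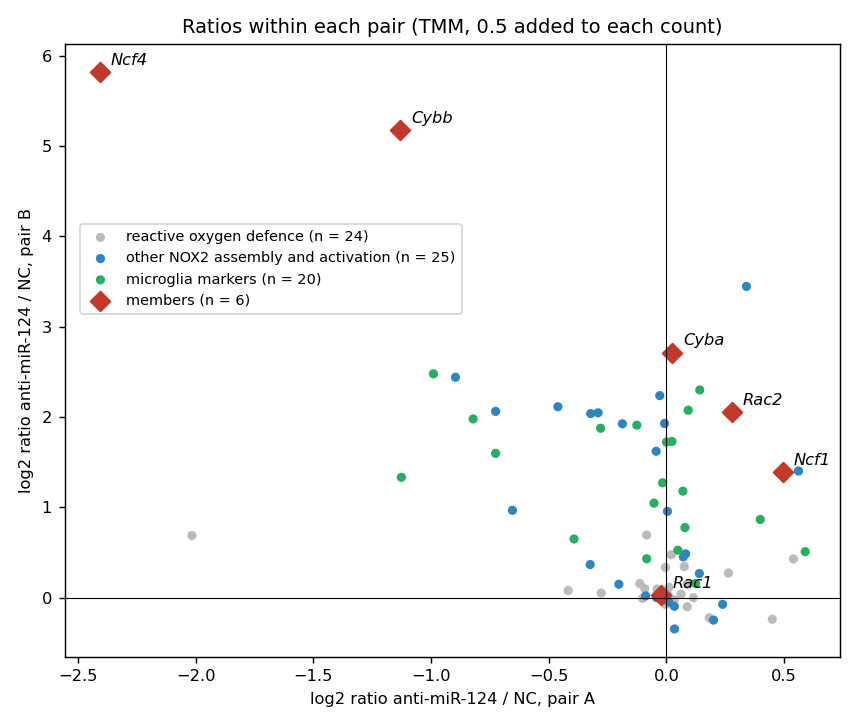
Log2 ratio of anti-miR-124 to NC in pair A (horizontal axis) and pair B (vertical axis) for the 6 genes (red diamonds), 25 other genes of the oxidase's assembly and activation (blue), 20 microglia markers (green) and 24 genes of the defence against reactive oxygen (grey), with 0.5 added to each count before the logarithm. Cybb lies at -1.13 and 5.18 and Rac1 at -0.02 and 0.03, and the microglia markers all lie above 0 in pair B.

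Levels were compared between genes per length, as TPM. In the NC libraries the order from high to low was Rac1 with a mean of 253 TPM (SD 11, n = 2), Cyba with 9.36 (4.67), Ncf1 with 2.38 (0.0396), Rac2 with 1.16 (0.154), Cybb with 0.428 (0.226) and Ncf4 with 0.406 (0.574). The NC libraries of neighbours in this order did not overlap, except those of Cybb and Ncf4, which did not differ beyond their spread. The same order was found with TMM-scaled counts per kilobase and with the lens genes left out of the sum. In anti-B the TPM values were 265 for Rac1, 40.3 for Cyba, 10.4 for Cybb, 6.22 for Ncf1, 5.39 for Rac2 and 3.14 for Ncf4, so that Cybb stood in the third place instead of the fifth.

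The proportions among the subunits differed between libraries. Cyba was 21.5, 49.7 and 22.6 times Cybb in TPM in NC-A, anti-A and NC-B, and 3.89 times in anti-B. Ncf1 was 4.10, 13.2 and 8.78 times Cybb in the first 3 and 0.600 times in the last. With 7 to 15 counts of Cybb behind them, the ratios of the first 3 libraries are imprecise. Rac1 was 187 to 232 times Rac2 in the first 3 libraries and 49.1 times in anti-B. Rac2 made up 0.355% to 0.428% of the summed TPM of Rac1, Rac2 and Rac3 in the first 3 libraries and 1.72% in the last.

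**Figure D3:**
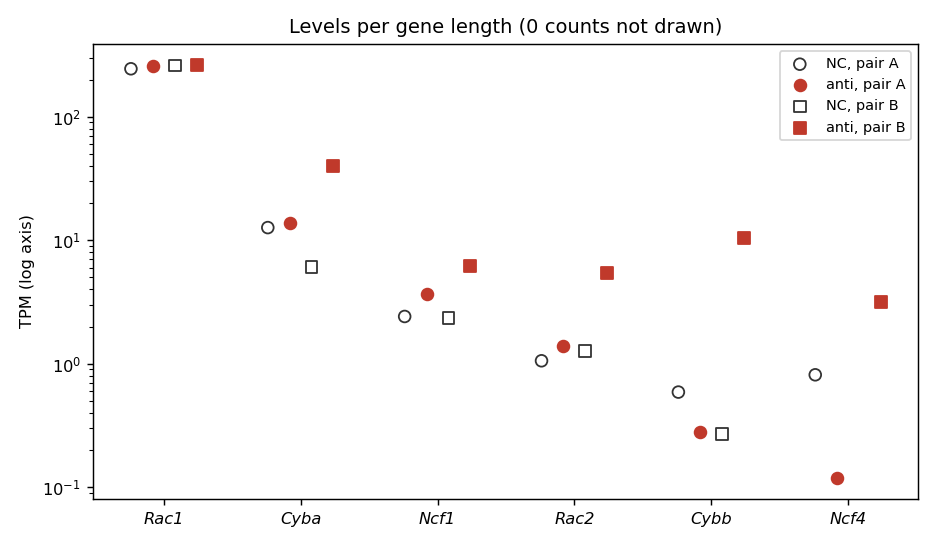
Level per gene length of the 6 genes, as TPM on a logarithmic axis, in each of the 4 libraries. Open symbols are NC and filled symbols anti-miR-124 libraries, circles pair A and squares pair B, and the 0 of Ncf4 in NC-B is not drawn. Anti-B is the highest of the 4 libraries for each gene, by little for Rac1, where the libraries lie between 245 and 265 TPM.

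Among the other genes of assembly and activation, 27 of 28 symbols were listed, all but Cybc1, and 25 passed the filter. The edgeR test called 0 of them, with 3 higher and 0 lower at an unadjusted p-value under 0.05, and DESeq2 called 0. The median log2 ratio was -0.03 in pair A and 0.96 in pair B, beside -0.01 and 0.003 for all genes tested. In pair B, 20 of the 25 lay above 0, over a range of -0.35 to 3.45, where 50.6% of all genes tested did. In both pairs 6 of the 25 were higher, a share near the 22.8% of all genes tested. The highest was Itgb2, the beta chain of leukocyte integrins, with 20, 27, 26 and 301 counts in NC-A, anti-A, NC-B and anti-B, and a fitted log2 fold change of 2.71 with a standard error of 0.97 and an adjusted p of 0.989 from edgeR. Its partner Itgam had 97, 62, 70 and 307 counts, and log2 ratios of -0.73 and 2.06 in pairs A and B.

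The activating receptors and adaptors of phagocytes had ratios of a similar kind. Log2 ratios in pair B were 2.44 for Fcer1g, the signalling chain of Fc receptors, 2.11 for Tyrobp, an adaptor of microglial receptors, 2.04 for Syk, the kinase that both recruit, and 1.93 for Fcgr1, an Fc receptor. In pair A these were -0.90, -0.46, -0.32 and -0.01, so that the pairs did not share a direction. Of the regulators of Rac, Dock2, an exchange factor of leukocytes, had a log2 ratio of 1.93 in pair B, Vav1, another exchange factor, 0.97, and Arhgap25, a GTPase-activating protein of phagocytes, 2.05. Prex1 and Tiam1, exchange factors that neurons also make, had 0.27 and -0.07. The kinases that act on p47phox or with Rac were spread, with 0.49 for Prkcd, -0.25 for Prkcb, 0.02 for Pak2 and -0.35 for Pak1. Clcn3, a chloride transporter and the highest of the list with 6353 to 7140 counts, had log2 ratios of -0.04 and 0.00. Slc11a1, a metal transporter of the phagosome, was higher in both pairs, at 0.56 and 1.40, with 35 and 55 counts in pair A and 37 and 103 in pair B.

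Prkcd, Vcam1 and Mmp2 are each paired with Cyba among the gene sets that the study drew from enriched pathways of these same libraries, so that they are no independent choice. Prkcd, a protein kinase C isoform, had a fitted log2 fold change of 0.29 (standard error 0.15), with log2 ratios of 0.08 and 0.49 in pairs A and B. Vcam1, an adhesion molecule, had 0.49 (0.16), with 0.57 and 0.44, and Mmp2, a matrix metalloproteinase, had 0.17 (0.10), with 0.17 and 0.17. By the quasi-likelihood test of edgeR the adjusted p was 0.989 for each of the 3. The study also ran RT-qPCR on candidate genes, which its text does not name there, and reported a trend similar to that of its RNA-Seq. For Vcam1 and Mmp2 both pairs had ratios of like size, unlike Cyba, for which the log2 ratios were 0.02 and 2.71.

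Other NADPH oxidases, which are made mainly outside phagocytes, had few counts. Of 9 genes listed, 3 passed the filter and 0 were called, with 0 at an unadjusted p-value under 0.05 and 0 by DESeq2. Nox1, a catalytic homologue, had 77 and 49 counts in pair A and 72 and 77 in pair B. Its organiser Noxo1 had 61, 52, 78 and 75 counts in the same order, and Nox4, a homologue that is active without cytosolic subunits, had 30, 28, 23 and 15. The 3 genes had pair B log2 ratios of 0.03, -0.12 and -0.66. Noxa1 had no count in the 4 libraries, and Nox3, Duox1, Duox2, Duoxa1 and Duoxa2 had at most 8 counts in any library.

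Of 11 other small GTPases of the family of Rac and Cdc42 tested, 0 were called by edgeR, with 0 at an unadjusted p-value under 0.05, and 0 by DESeq2, and the median log2 ratios were 0.02 and 0.10. Cdc42, Rhoa and Rhob, regulators of the cytoskeleton and the highest of the list, had log2 ratios of -0.12, -0.11 and -0.07 in pair A and -0.07, 0.10 and 0.18 in pair B. The range of the 11 genes in pair B was -0.23 to 1.28, with 7 of them above 0. Its upper end was Rhog, a GTPase of phagocytosis named after its values were seen, with 83 counts in NC-A, 89 in anti-A, 58 in NC-B and 148 in anti-B, so that its groups did not overlap. Of 24 genes of the defence against reactive oxygen, 0 were called by either test, with 1 higher and 0 lower at an unadjusted p-value under 0.05, and the medians were 0.01 and 0.09. Prdx2, Gpx4 and Sod2, which remove peroxides, lipid peroxides and superoxide, had log2 ratios in pair B of -0.05, 0.16 and -0.02.

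Microglia markers were higher in the same library as the subunits. Of 20 markers, 20 were higher in anti-B than in NC-B, with a median log2 ratio of 1.30 and a range of 0.16 to 2.48, and 10 were higher in pair A, with a median of -0.01. Of all genes tested, 48.2% were higher in pair A and 50.6% in pair B. Their summed level was 188 CPM in NC-A, 150.4 in NC-B, 184 in anti-A and 394 in anti-B. The edgeR and DESeq2 tests called 0 of them, with 6 higher and 0 lower at an unadjusted p-value under 0.05. Ctss, a lysosomal protease, and Csf1r, the receptor that microglia need to survive, were among the 3 highest, with pair B ratios of 4.22 (95% counting interval 3.68 to 4.86) and 2.27 (1.99 to 2.59). In bulk retina, a change in the number of cells of a type and a change in the RNA of each cell cannot be told apart.

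Set against the summed microglia markers, the subunits differed among themselves. The markers did not move alike, with log2 ratios of 0.16 to 2.48 in pair B, so these values depend on which markers are summed. Per 1000 CPM of the markers, Cybb was at 4.95, 2.23, 2.58 and 38.1 in NC-A, anti-A, NC-B and anti-B, a ratio of 14.8 in pair B. The ratio in pair B was 2.55 for Cyba, 1.62 for Rac2 and 1.01 for Ncf1. Ncf1 stood at 14.0 and 14.1 in pair B, from 38 and 105 counts, so that this likeness is imprecise. In pair A it stood at 12.5 and 18.2. Ncf4 was at 0 in NC-B and 3.91 in anti-B, so that no ratio is given for it. Rac1, which is not particular to microglia, had a ratio of 0.389. The part of microglia in the level of the subunits was not tested.

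**Figure D4:**
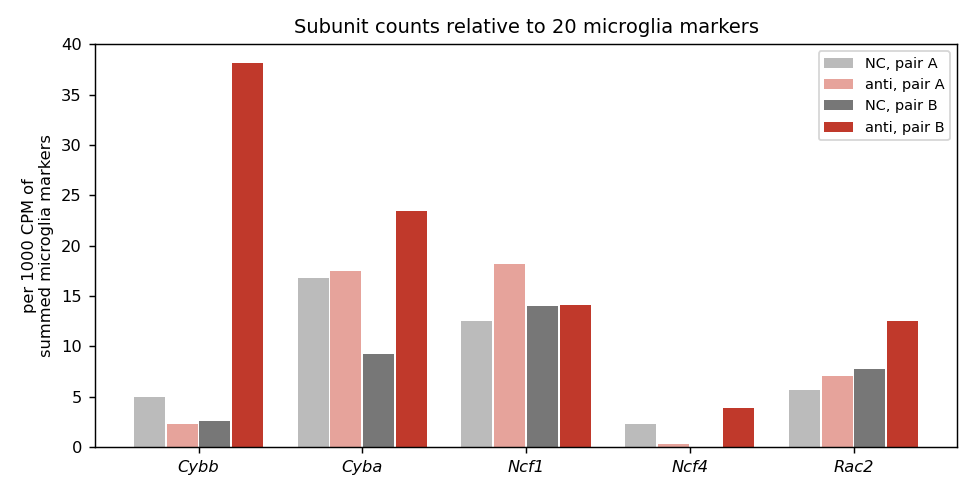
Level of 5 of the 6 genes per 1000 CPM of the summed 20 microglia markers, on a linear axis from 0, in the NC (grey) and anti-miR-124 (red) libraries of pair A (light) and pair B (dark). Rac1 is left out for its scale. Cybb reaches 38.1 in anti-B, against 4.95 or less elsewhere, while Ncf1 is at 14.0 and 14.1 in pair B.

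Markers of the other cells that make this oxidase gave the following levels. Neutrophil markers summed to 7.02 CPM in NC-A, 6.53 in NC-B, 7.03 in anti-A and 8.59 in anti-B. Ly6g, Mpo and Elane had no count in any library. Mmp8, Cxcr2 and Il1r2 had 6, 4 and 3 counts in anti-B and 0 in the other libraries. Other markers with few counts were not highest in anti-B. Ngp had 3, 1, 4 and 1 counts in NC-A, anti-A, NC-B and anti-B. In the same order Ltf had 2, 2, 3 and 1, Camp 3, 2, 1 and 1, and Retnlg 1, 1, 1 and 0. The part of neutrophils in the level of Cybb was not tested. Of 12 such markers 2 passed the filter, and Mmp9, Csf3r and Ngp were the highest. Monocyte markers summed to 42.2 CPM in NC-A, 35.4 in NC-B, 35.8 in anti-A and 53.1 in anti-B, mostly from Vcan, a matrix proteoglycan that other cells also make. Ly6c2 and Chil3 had no count, but Ccr2, the chemokine receptor of inflammatory monocytes, had 0 and 0 counts in pair A and 2 and 25 in pair B, a ratio of 12.0 in pair B (95% counting interval 2.99 to 104). F13a1, a coagulation factor of monocytes and macrophages, had 25 and 13 counts in pair A and 4 and 56 in pair B. Plac8, of the same list, had 3 and 2 counts in pair A and 3 and 2 in pair B, and was not highest in anti-B. Ccr2 and F13a1 were highest in the library where Cybb was highest, and their part in the level of Cybb was not tested.

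Lymphocyte markers summed to 0.265 to 0.621 CPM, with Cd3d, Cd3e and Ms4a1 at 0 counts. Red cell markers summed to 83.6 CPM in NC-A, 143 in NC-B, 310.1 in anti-A and 88.3 in anti-B. The part of blood in the level of Cybb was not tested. Endothelial markers had median log2 ratios of -0.07 and -0.05. Of these lists edgeR and DESeq2 called 0 genes, with 1 retina marker higher at an unadjusted p-value under 0.05 and 0 in the neutrophil, monocyte, lymphocyte, red cell and endothelial lists. For the lens genes the median log2 ratio was -8.53 in pair A and 0.25 in pair B, with 19 of 19 tested lower at an unadjusted p-value under 0.05 and 0 called.

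The genes whose levels over the 4 libraries were most like those of the core subunits were found by the root mean square difference of log2 CPM, centred on the mean of the 4 libraries, among 16055 genes. For Cybb these were Gpnmb, a glycoprotein of phagocytes (difference 0.23), Atp6v0d2, a subunit of the vacuolar proton pump (0.25), Lilrb4a, an inhibitory receptor of myeloid cells (0.31), Msr1, a scavenger receptor of macrophages (0.33), and Serpina3n, a protease inhibitor (0.39). Gpnmb had 257 and 144 counts in pair A and 179 and 4511 in pair B. Atp6v0d2 had 7, 5, 5 and 187 counts in the same order, and Msr1 6, 5, 4 and 126. These genes share with Cybb 1 high library, and a likeness over 4 libraries with 1 high value is a description.

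For Cyba they were Cd300a, an inhibitory receptor of leukocytes (0.07), Ankrd2 (0.12), Cdk18, a kinase (0.16), H2-K1, a class I histocompatibility molecule (0.16), and Tnfaip2 (0.21). Cd300a had 19 and 19 counts in pair A and 8 and 63 in pair B, and H2-K1 had 105, 106, 65 and 361. Like Cyba, all 5 were lowest in NC-B and highest in anti-B. The lists for Cybb and Cyba had no gene in common.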

How the data were processed

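Whole-retina RNA-Seq libraries, made with a directional kit, were compared between the anti-miR-124 group and the NC group, with 2 libraries a group. What the authors deposited is a table of raw read counts for each gene, with gene lengths and positions. The submitters' processing notes name HISAT2 and the build mm9, without a version of the tool. The counting tool, its use of strand and its treatment of reads matching several genes are not given in the sources used here. The deposited positions match GRCm38 instead, as 99.8% of 36837 symbols overlapped RefSeq positions of GRCm38.p6. The table also holds 4 columns of RPKM values by the authors, which were not used.

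Columns were assigned to groups by the eye they name. No libraries were duplicates, with a chi-square per degree of freedom of at least 3.67 between libraries. Counts were tested with the quasi-likelihood test of edgeR 4.0.16 (limma 3.58.1, R 4.3.3), with TMM normalization, filterByExpr, no covariate, both directions, and Benjamini-Hochberg adjustment at 0.05. DESeq2 1.42.0 was an alternative. The test was checked on simulated counts. TPM was computed from counts and lengths. Ratios within a pair used TMM-scaled library sizes, with 0.5 added before a logarithm, and exact conditional 95% intervals. Python 3.11.15, numpy 2.4.6, pandas 2.3.3 and scipy 1.17.1 were used. At 16317239 to 18726963 counts a library, a gene with few counts has a wide interval.

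The 6 genes and all lists were chosen with earlier results of these data known. Named were the 6 genes, Prkcd, Vcam1 and Mmp2, the 3 highest genes of each list, genes of the oxidase lists with at least 10 counts in a library, and the 5 genes most like Cybb and Cyba among those with a mean of at least 1 CPM. Other genes are named after their values were seen. The values of 3 genes that this rule or a marker list would name are not reported here. The values were also computed with other scalings, filters, tests and designs and with each library left out.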

Additional observations from a re-analysis of the deposited data

How the results depend on the processing

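The number of genes called over all genes depended on the filter, the test and single libraries. It was 0 of 17766 with the filter and all 4 libraries, 379 without a filter, 34 with the Wald test of DESeq2, and 0 to 256 when 1 library was left out: 256 without anti-A, 57 without NC-B, 12 without anti-B and 0 without NC-A. With the shared number as a replicate block, 0 genes were called, with 376 at an unadjusted p-value under 0.05 instead of 694. Same-numbered libraries had a correlation of -0.16 in their deviations from the group means. With 2 libraries a group, this correlation also carries what is particular to single libraries, so it cannot decide whether the numbers mark pairs. The test without the block was the main one, and the block an alternative. With crossed numbers, added after seeing the data, 160 genes were called. Of the 130 genes of the lists tested with the filter and all 4 libraries, 0 were called, and 24 with crossed numbers. Among the genes of the lists, 49 were called without a filter and 0 to 22 when 1 library was left out. These were 21 without anti-A and 22 without NC-B, of which 21 were lens genes. The calls without a filter or with 1 library left out are not out of the 130, since the genes tested then differed. Without a filter and without NC-B, 21 lens genes were tested, against 19 among the 130. Cybb, Cyba and Rac2 passed the threshold without a filter, where 379 of all 31982 genes did. With crossed numbers Cybb and Cyba passed it, where 160 of all 17766 genes did. This is given as a description and not as support, since the genes were chosen on this contrast. Without anti-A, anti-B was the only anti-miR-124 library left. The log2 fold changes were then 4.52 for Cybb, 2.03 for Cyba and 2.14 for Rac2. The replicate block changed no call among these genes.

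Without anti-B, the log2 fold change of Rac2 went from 1.49 to 0.22 and that of Cybb from 3.56 to -0.65. The median log2 fold change of the 5 genes tested ranged from 0.22 to 2.03 when 1 library was left out. The median NC level of the 6 genes was 1.77 TPM, 0.559 with TMM-scaled CPM per kilobase, and 1.84 with the lens genes left out of the sum. With TPM summed over all genes, Rac1 also had a ratio above 1 in both pairs, making 4 genes, where the median log2 ratio of all genes in pair A shifted to 0.10. Seed matches of miR-124-3p were not run, as its mature sequence was not analysed here. Counts of 0 to 30, as for Ncf4, limit what can be said of a ratio.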

Other observations

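Heme oxygenase, encoded by Hmox1, which breaks down heme and is counted here among the genes of the defence against reactive oxygen, had 482 counts in NC-A and 108 in NC-B, and 126 and 182 counts in the anti-miR-124 libraries of pairs A and B. The log2 ratios were -2.02 and 0.69. The high library of Hmox1 was that with 6.72% of its summed TPM in lens genes, whereas the high library of Cybb was anti-B. Rac3, the Rac protein of neurons, had 294 and 353 counts in pair A and 293 and 269 in pair B, with log2 ratios of 0.18 and -0.19. Both were named after their values were seen.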
